A study of Mus musculus with 10 samples.

Results

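The MHC class II genes make and load the molecules that show peptides to CD4+ T cells. The rule named 9 genes (H2-Aa, H2-Ab1, H2-Eb1, H2-DMa, H2-DMb1, H2-Oa, H2-Ob, Cd74 and Ciita) and took the rows of the expression table annotated to each symbol, with the probe set of the highest mean where a gene had several. Of the 9, 8 matched a probe set, 1 each, among 19505 genes in all, and these 8 were among the 13393 genes tested. Cd74, the invariant chain, is not analysed here.

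Per the labels, CD4+ T cells of the strain C57BL/10 were transduced with GFP, the control, or with oncogenic Vav1, a mutated signalling protein of the T cell receptor pathway. The cells went into immunocompromised mice, and spleen and lymph node were analysed 6 months later. The question of the series is what cancer-associated forms of VAV1 do in T cell lymphomagenesis. In the spleen, GFP had 2 arrays (replicate 1 from CTL2, 2 from CTL4) and oncogenic Vav1 had 4 (replicates 1 to 4 from ONCO1 to ONCO4). In the lymph node each construct had 2 arrays, from CTL1 and CTL2 for GFP and from ONCO2 (replicate 1) and ONCO3 (replicate 2) for oncogenic Vav1. These codes come from the labels and were taken as 7 animals, of which CTL2, ONCO2 and ONCO3 gave both tissues. That samples of a group are separate animals rests on these codes alone. All groups share the transfer into an immunocompromised host. The host strain, the lymphocytes it still had and the Vav1 mutation are not given in the sources used here.

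A class II molecule is a pair of an alpha and a beta chain. H2-Aa and H2-Ab1 encode the 2 chains of H2-A, and H2-Eb1 encodes the beta chain of H2-E. H2-DM, the pair of H2-DMa and H2-DMb1, exchanges the placeholder peptide for antigen in the endosome, and H2-O, the pair of H2-Oa and H2-Ob, restrains H2-DM chiefly in B cells. Ciita is the coactivator that sets class II transcription. It binds no DNA itself and acts through proteins bound to the X and Y boxes of the promoters. B cells, dendritic cells and many macrophages express class II, whereas resting mouse T cells do not. C57BL/10 mice carry a haplotype with a defective H2-Ea gene, so that the H2-Eb1 transcript is made without an H2-E molecule at the cell surface.

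The promoters of 5 members are printed because each holds letters of the X and Y elements in the same order just before the start. All are on chromosome 17 of GRCm38.p6 (RefSeq) and run from base 110 to base 11 before the annotated start, read along the gene. Capitals mark GATTGG (the core of the Y box, bound by NF-Y), GCAAC (from the X1 element, bound by RFX), TGATG (from the X2 element) and TGACGTCA (the full cyclic AMP element, the X2 element of H2-Aa). The windows are chr17:34287834-34287933 on the minus strand for H2-Aa, and on the plus strand chr17:34305757-34305856 for H2-Eb1, chr17:34153081-34153180 for H2-DMb1, chr17:34092269-34092368 for H2-Oa and chr17:34238795-34238894 for H2-Ob.
H2-Aa: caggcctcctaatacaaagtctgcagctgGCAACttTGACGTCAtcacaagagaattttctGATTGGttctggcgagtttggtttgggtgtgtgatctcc
H2-Eb1: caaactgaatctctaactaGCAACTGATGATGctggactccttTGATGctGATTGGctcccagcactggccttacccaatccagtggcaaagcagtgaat
H2-DMb1: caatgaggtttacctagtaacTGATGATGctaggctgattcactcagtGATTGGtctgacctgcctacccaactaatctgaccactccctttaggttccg
H2-Oa: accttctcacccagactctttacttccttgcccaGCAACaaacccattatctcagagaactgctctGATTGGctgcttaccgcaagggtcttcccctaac
H2-Ob: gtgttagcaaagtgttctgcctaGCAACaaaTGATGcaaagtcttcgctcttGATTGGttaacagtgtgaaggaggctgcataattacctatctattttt

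GATTGG began 49 bases before the start in H2-Aa, 60 in H2-Eb1, 62 in H2-DMb1, 44 in H2-Oa and 58 in H2-Ob. In each of the 5, GCAAC or TGATG began 20 to 40 bases before it. Searched on both strands in the 250 bases before the start, GATTGG was in 14.6% of 32851 RefSeq promoters, GCAAC in 29.9%, TGATG in 34.5% and TGACGTCA in 1.55%. The arrangement of GCAAC or TGATG beginning 20 to 40 bases before GATTGG was in 0.67%. It was also in the promoters of the neighbouring class II genes H2-Eb2 and H2-DMb2, and in neither of the 2 promoters listed for H2-DMa. In gene order along chromosome 17 the members run H2-Oa, H2-DMa, H2-DMb1, H2-Ob, H2-Ab1, H2-Aa and H2-Eb1, while Ciita lies on chromosome 16. A match is a description of letters and shows no binding.

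The values are log2 expression values, deposited after RMA, so that a difference of 1 is a doubling and values of different genes cannot be set against each other. The array medians lay between 6.27 and 6.41. Vav1 was at 9.63 and 9.83 in the GFP spleen and between 9.99 and 10.3 in the oncogenic Vav1 spleen, a difference of 0.45 (SE 0.21, limma adjusted p = 0.14). In the lymph node Vav1 was at 9.52 and 9.69 with GFP and at 10.17 and 9.27 with oncogenic Vav1. That difference was 0.11 (SE 0.24, limma adjusted p = 0.8), and replicate 2 was the lowest of the 10 arrays. The labels do not give whether the Vav1 probes read the introduced form. Although CD4+ T cells is the labelled cell type, the B cell receptor chain Cd79a was between 10.02 and 11.92 on every array, and the macrophage complement gene C1qa between 7.98 and 10.92. In bulk RNA, fewer cells of a type and less RNA per cell cannot be told apart. The 2 oncogenic Vav1 lymph node arrays stood apart from each other. Between them 10.3% of the genes differed by more than 1 log2 unit, against at most 1.06% between any other 2 arrays of a group, so lymph node results are given with and without each of them.

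**Figure D1:**
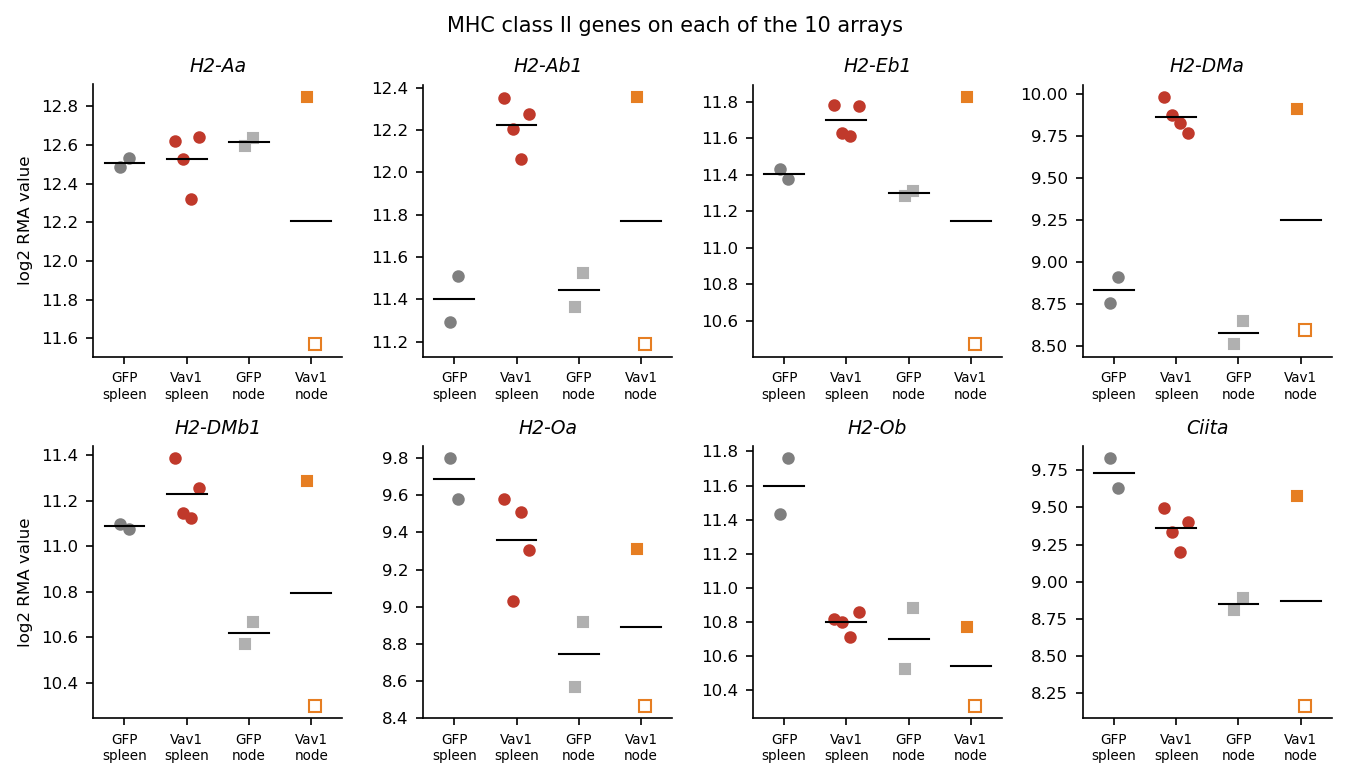
Log2 RMA value of 8 MHC class II genes (y axis, 1 panel a gene, axes not starting at 0) on each of 10 arrays in the 4 groups (x axis). Points are arrays, black lines are group means and the open square is oncogenic Vav1 lymph node replicate 2, the lowest array of the 10 for H2-Aa, H2-Ab1, H2-Eb1, H2-DMb1, H2-Oa, H2-Ob and Ciita.

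In the spleen, the class II genes moved in different directions with oncogenic Vav1. H2-Ab1 and H2-DMa rose, H2-Ob fell and the other 5 did not pass the test. By limma (adjusted p under 0.05, Benjamini-Hochberg over all genes), 26.8% of all genes changed in this comparison, 17.1% up and 9.77% down, so 3 of 8 members is not far from the background share. With each array centred on its median, 1766 genes were higher and 2520 lower, against 2288 and 1308 in the deposited scale. Centring lowered each spleen difference by 0.13, and under it H2-Ab1 (0.70, adjusted p = 0.048), H2-DMa (0.90, adjusted p = 0.026) and H2-Ob (-0.93, adjusted p = 0.0023) still passed. The arrays of the 2 groups did not overlap for 7 members, 4 higher and 3 lower with oncogenic Vav1, while 30.3% of all genes were separated as higher and 25.2% as lower. The median difference was 0.08 over the 8 members and 0.00 over all genes tested.

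Of the classical chains, the beta chain H2-Ab1 was at 11.29 and 11.51 in the GFP spleen and at 12.35, 12.20, 12.06 and 12.28 in the oncogenic Vav1 spleen. Each oncogenic Vav1 array lay above both GFP arrays. The difference was 0.82 (SE 0.25, 1.77-fold, limma adjusted p = 0.035). H2-Ab1 lost the threshold in limma fits that left out the spleen array of CTL2 (0.71, adjusted p = 0.21), CTL4 (0.93, adjusted p = 0.1), ONCO1 (0.78, adjusted p = 0.083), ONCO2 (0.83, adjusted p = 0.068) or ONCO4 (0.80, adjusted p = 0.069), or either GFP lymph node array (0.82, adjusted p = 0.055 each). It also missed with quantile normalization (0.61, adjusted p = 0.09).

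Its partner, the alpha chain H2-Aa, was at 12.48 and 12.53 in the GFP spleen and at 12.62, 12.53, 12.32 and 12.64 in the oncogenic Vav1 spleen. The groups overlapped, with a difference of 0.02 (SE 0.27, limma adjusted p = 0.96) that was below 0 after centring (-0.11) or quantile normalization (-0.06). H2-Aa lay between percentiles 99.1 and 99.9 of the probe sets of its arrays, close to the top of the measured range.

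The chain H2-Eb1 was at 11.43 and 11.38 in the GFP spleen and at 11.78, 11.63, 11.61 and 11.78 in the oncogenic Vav1 spleen. The oncogenic Vav1 arrays were all higher, by a mean of 0.29 (SE 0.27, limma adjusted p = 0.44) that was about as large as its error. That error pools the spread of all 4 groups. In fits that left out the lymph node array of ONCO2 or ONCO3, H2-Eb1 kept the same difference (SE 0.08 in both). It passed at that difference when only spleen arrays entered the fit (SE 0.09, limma adjusted p = 0.024). With each array centred on its median the difference was 0.17 (limma adjusted p = 0.64). Quantile normalization brought it to 0.09 (adjusted p = 0.84), and the arrays of the 2 groups then overlapped.

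Of the peptide-exchange pair, H2-DMa was at 8.76 and 8.91 in the GFP spleen and at 9.98, 9.88, 9.83 and 9.77 in the oncogenic Vav1 spleen. The gap between the groups was larger than the range within either. The difference was 1.03 (SE 0.27, 2.04-fold, limma adjusted p = 0.02). H2-DMa missed the threshold without the spleen array of CTL2 (0.95, adjusted p = 0.15), CTL4 (1.11, adjusted p = 0.083) or ONCO1 (0.99, adjusted p = 0.054). Its partner H2-DMb1 was at 11.10 and 11.07 against 11.39, 11.15, 11.13 and 11.25. These groups were just separated, with a difference of 0.14 (SE 0.21, limma adjusted p = 0.64) that quantile normalization brought to -0.03. H2-DMb1 and H2-DMb2 are close copies, so their probe sets may read both.

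Of the H2-O pair, the brake on H2-DM, 1 chain fell. H2-Ob was at 11.43 and 11.76 in the GFP spleen and at 10.82, 10.80, 10.71 and 10.86 in the oncogenic Vav1 spleen. All 4 oncogenic Vav1 arrays were below both GFP arrays, and H2-Ob fell by 0.80 (SE 0.16, 1.74-fold, limma adjusted p = 0.0052). It missed without the spleen array of CTL4 (-0.64, adjusted p = 0.062). H2-Oa was at 9.80 and 9.58 against 9.58, 9.03, 9.51 and 9.31. The nearest arrays of those groups met at 9.58, and the difference of -0.33 (SE 0.23) had a limma adjusted p of 0.3.

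The coactivator Ciita was at 9.83 and 9.63 in the GFP spleen and at 9.50, 9.34, 9.20 and 9.40 in the oncogenic Vav1 spleen. Every oncogenic Vav1 array was lower, with a difference of -0.37 (SE 0.29, limma adjusted p = 0.36). Ciita passed at that difference when only spleen arrays entered the fit (SE 0.11, adjusted p = 0.024) and when the lymph node array of ONCO2 (SE 0.11, adjusted p = 0.015) or of ONCO3 (SE 0.11, adjusted p = 0.014) was left out. Between the 2 spleen groups Ciita was thus lower where H2-Ab1 and H2-DMa were higher, though Ciita did not pass in the main fit. From array to array this held in the GFP spleen and not in the other groups. In the GFP spleen, CTL2 had the higher Ciita but the lower H2-Ab1 (11.29 against 11.51) and H2-DMa (8.76 against 8.91). Within the oncogenic Vav1 spleen, Ciita and H2-Ab1 had the same order, ONCO1 highest, then ONCO4, ONCO2 and ONCO3. H2-DMa did not follow that order and was lowest in ONCO4. In the GFP lymph node Ciita, H2-Ab1 and H2-DMa were all higher in CTL2 than in CTL1. In the oncogenic Vav1 lymph node Ciita, H2-Ab1 and H2-DMa were all higher in replicate 1 than in replicate 2.

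The intronic control probe sets also differed between the spleen groups. Their median was 5.87 and 5.69 in the GFP spleen and between 5.43 and 5.55 in the oncogenic Vav1 spleen. With this median as a covariate, H2-Ab1 was at -0.14 (adjusted p = 0.67) and H2-DMa at 0.06 (adjusted p = 0.9), H2-Ob was at -1.33 (adjusted p = 0.0044), and Ciita (-1.32, adjusted p = 0.046) and H2-Aa (-0.95, adjusted p = 0.048) passed as lower. Within groups, the covariate differed most between the 2 oncogenic Vav1 lymph node arrays, at 5.27 and 5.57, so its slope rests in part on them.

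**Figure D2:**
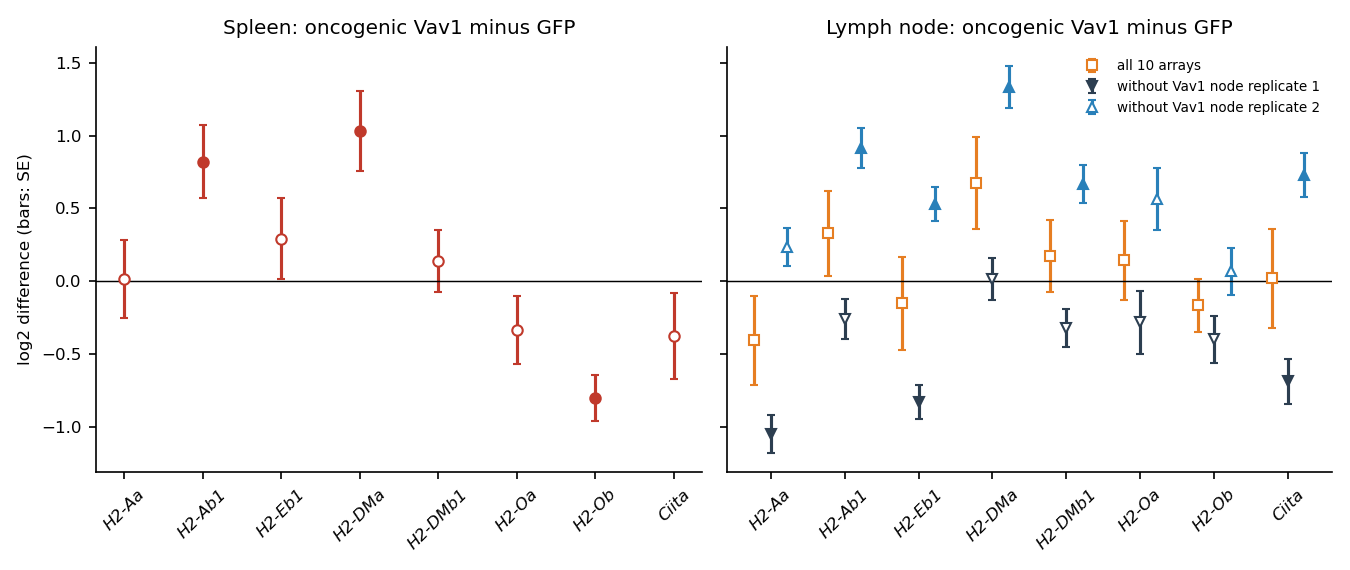
Log2 difference of oncogenic Vav1 minus GFP (y axis, bars are SE) for each of 8 MHC class II genes (x axis) in the spleen (left) and lymph node (right). Filled symbols have an adjusted p under 0.05. In the lymph node, leaving out replicate 2 of the oncogenic Vav1 arrays (triangles pointing up) gave 5 genes higher, and leaving out replicate 1 (triangles pointing down) gave 3 genes lower.

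In the lymph node, 0 of 8 members changed, by limma, where 18.7% of all genes did (7.87% up, 10.8% down), and none had an unadjusted p under 0.05. For all 8 the oncogenic Vav1 arrays overlapped the GFP arrays, where 24.2% of all genes were separated as higher and 28.8% as lower. The 2 oncogenic Vav1 arrays lay far apart. H2-DMa was at 8.51 and 8.65 with GFP and at 9.91 and 8.59 with oncogenic Vav1, a difference of 0.67 (SE 0.32, limma adjusted p = 0.18). Ciita was at 8.81 and 8.89 against 9.58 and 8.16, with 1 array above and 1 below both controls and a difference of 0.02 (SE 0.34, limma adjusted p = 0.98).

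The other members had the same split. H2-Aa was at 12.59 and 12.63 against 12.85 and 11.57, H2-Ab1 at 11.36 and 11.52 against 12.36 and 11.19, and H2-Eb1 at 11.29 and 11.31 against 11.83 and 10.47. In each, replicate 1 was above and replicate 2 below both GFP arrays. H2-DMb1 was at 10.57 and 10.67 against 11.29 and 10.30, H2-Oa at 8.57 and 8.92 against 9.31 and 8.46, and H2-Ob at 10.53 and 10.88 against 10.77 and 10.31. H2-Ob was the exception, since its replicate 1 lay within the GFP arrays. The differences of these 6 ran from -0.40 (SE 0.31) for H2-Aa to 0.33 (SE 0.29) for H2-Ab1.

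Without oncogenic Vav1 lymph node replicate 2, 5 members passed as higher by limma, with the remaining array assumed to vary like the other groups. In that fit 11% of all genes were higher. The members were H2-DMa (1.33, adjusted p = 2e-05), H2-Ab1 (0.91, adjusted p = 0.00036), Ciita (0.73, adjusted p = 0.0034), H2-DMb1 (0.67, adjusted p = 0.002) and H2-Eb1 (0.53, adjusted p = 0.0048). Without replicate 1, 3 passed as lower where 20.4% of all genes did, namely H2-Aa (-1.04, adjusted p = 4.6e-05), H2-Eb1 (-0.83, adjusted p = 0.00011) and Ciita (-0.68, adjusted p = 0.0035). H2-Eb1 and Ciita thus passed in opposite directions, depending on which array was kept.

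Replicate 2, from the animal ONCO3, was below replicate 1 in all 8 members, by 0.46 to 1.41 with a median of 1.22, where the median over all genes was 0.07. On the same array the T cell markers were lower by a median of 1.11 (11 of 11 genes), the B cell markers by 0.80 (9 of 12) and the macrophage and monocyte markers by 0.71 (9 of 12). The 5 erythroid markers were higher in replicate 2 by a median of 1.76, and their mean of 9.98 was the highest of the 10 arrays. The part of these other transcripts in the class II values was not tested. The spleen array of ONCO3 was not low to the same degree. Among the oncogenic Vav1 spleen arrays it was still the lowest for H2-Aa, H2-Ab1, H2-Eb1, H2-DMb1, H2-Ob and Ciita, though not for H2-DMa or H2-Oa. Its H2-Ab1 value of 12.06 was 0.88 above that of its lymph node, and H2-DMa was 1.24 higher in the spleen. In ONCO2, which gave replicate 1, lymph node and spleen differed by -0.03 to 0.32 over the 8 members.

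Fitted over both tissues with the animal as a random block, H2-DMa (0.87, SE 0.19, limma adjusted p = 0.0072) and H2-Ab1 (0.59, SE 0.19, adjusted p = 0.034) were higher and H2-Ob lower (-0.53, SE 0.13, adjusted p = 0.013), so 3 of 8 members changed against 31.7% of all genes (2327 higher and 1920 lower, or 2108 and 2599 with each array centred on its median). On leaving out each of the 10 arrays in turn, H2-DMa passed in 9 fits, all but that without the spleen array of CTL2 (0.79, adjusted p = 0.059). H2-Ob passed in 8, the exceptions being those without the spleen (-0.52, adjusted p = 0.074) or the lymph node array of CTL2 (-0.52, adjusted p = 0.059). H2-Ab1 passed in 2, those without the spleen or the lymph node array of ONCO3. It missed without the spleen array of CTL2 (0.48, adjusted p = 0.19), CTL4 (0.58, adjusted p = 0.079), ONCO1 (0.56, adjusted p = 0.056), ONCO2 (0.50, adjusted p = 0.082) or ONCO4 (0.57, adjusted p = 0.055), and without the lymph node array of CTL1 (0.61, adjusted p = 0.055), CTL2 (0.67, adjusted p = 0.066) or ONCO2 (0.37, adjusted p = 0.076). The correlation within the animal block was below 0 (-0.35), and the errors were larger without the block. H2-DMa (SE 0.21, limma adjusted p = 0.015) and H2-Ob (SE 0.15, adjusted p = 0.033) still passed without it. H2-Ab1 missed without the block (0.61, adjusted p = 0.051), with quantile normalization (0.45, adjusted p = 0.07) and with the intronic control covariate (0.10, adjusted p = 0.42). With that covariate H2-DMa was at 0.40 (adjusted p = 0.027) and H2-Ob at -0.62 (adjusted p = 0.0052), while H2-Aa (-0.71), H2-Eb1 (-0.42) and Ciita (-0.65) passed as lower. The construct effect in the lymph node minus that in the spleen passed for 0 of 8 members (8.04% of all genes, 0.933% above and 7.11% below 0, or 360 and 713 genes after centring against 125 and 952), and 1 had an unadjusted p under 0.05. That was H2-Ob, at 0.65 (SE 0.25, limma adjusted p = 0.13).

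Partner chains of a pair changed unequally, a contrast chosen after the values were seen and therefore given without a test. Taken within each array, H2-Ab1 minus H2-Aa was -1.19 and -1.02 in the GFP spleen and -1.23 and -1.11 in the GFP lymph node. It was -0.27, -0.33, -0.26 and -0.37 in the oncogenic Vav1 spleen and -0.49 and -0.38 in the oncogenic Vav1 lymph node. The 4 GFP arrays (mean -1.14, SD 0.09) and the 6 oncogenic Vav1 arrays (mean -0.35, SD 0.09) were apart in both tissues, lymph node replicate 2 included. CTL2, ONCO2 and ONCO3 gave both tissues, so these SDs are over arrays and not over animals. How often other pairs of genes part the constructs in this way was not counted.

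For the peptide-exchange pair, H2-DMa minus H2-DMb1 lay between -2.34 and -2.02 on the 4 GFP arrays and between -1.70 and -1.27 on the 6 oncogenic Vav1 arrays. These ranges did not overlap either. For the inhibitory pair, H2-Oa minus H2-Ob lay between -2.18 and -1.63 with GFP and between -1.84 and -1.20 with oncogenic Vav1, and these overlapped. After quantile normalization the first 2 contrasts were still apart, with H2-Ab1 minus H2-Aa between -1.21 and -0.90 with GFP and between -0.49 and -0.31 with oncogenic Vav1. The differences compare probe sets, so their change across arrays can be read and their size on an array cannot. For the first 2 pairs they describe an unequal change of the chains in these arrays, not that either chain stayed the same. Both H2-Aa and H2-Ab1 ranked among the highest probe sets of their arrays.

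**Figure D3:**
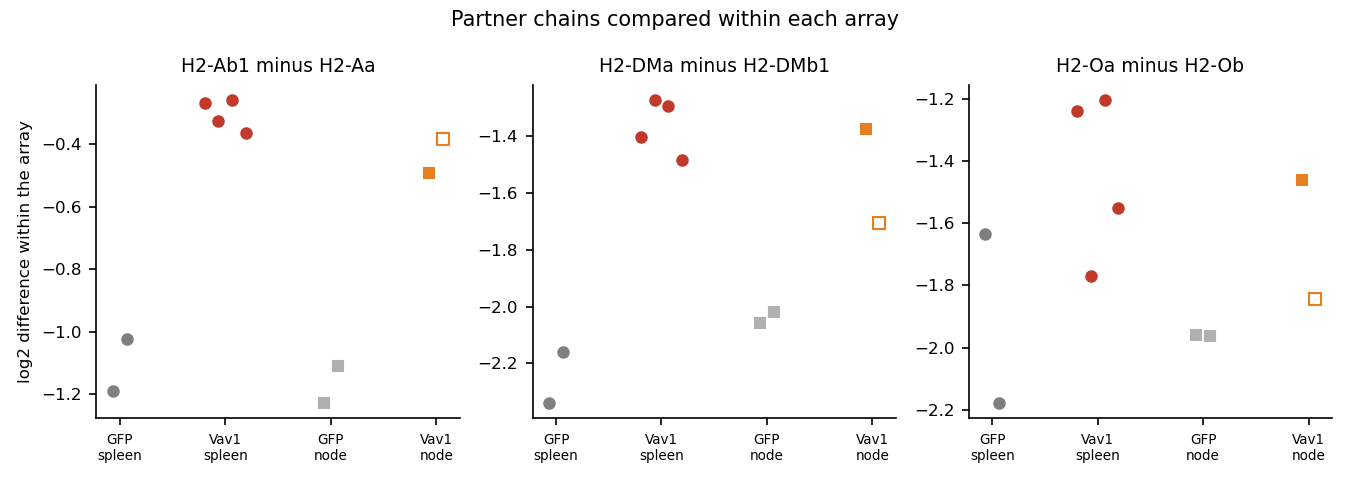
Log2 difference between the 2 chains of a pair within each array (y axis, axes not starting at 0) in the 4 groups (x axis), for H2-Ab1 minus H2-Aa, H2-DMa minus H2-DMb1 and H2-Oa minus H2-Ob. Points are arrays and the open square is oncogenic Vav1 lymph node replicate 2. For the first 2 pairs the 6 oncogenic Vav1 arrays lie above the 4 GFP arrays, and for the third the groups overlap.

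Between the tissues of the GFP animals, both chains of the H2-O pair passed the test. H2-Ob was 0.91 lower in the lymph node (SE 0.19, limma adjusted p = 0.0075) and H2-Oa 0.95 lower (SE 0.27, adjusted p = 0.036), while the other 6 did not pass. Both lymph node arrays were below both spleen arrays in each. Over all genes 16% changed, 11.6% as higher and 4.41% as lower (1554 and 590 genes, or 1261 and 1254 after centring, which lowered each difference by 0.13). The arrays did not overlap for 7 members, 6 of them lower, where 34.2% of all genes were separated as higher and 33% as lower. Ciita differed by -0.88 (SE 0.35, limma adjusted p = 0.12) and H2-DMb1 by -0.47 (SE 0.26, adjusted p = 0.25), and both passed when the lymph node array of ONCO2 (adjusted p = 9.5e-05 and 0.0033) or of ONCO3 (adjusted p = 7.7e-05 and 0.0031) was left out. The 3 classical chains were between -0.11 and 0.10. With the intronic control covariate all 8 members passed as lower in the lymph node, from -2.03 for Ciita to -1.05 for H2-Ab1. H2-Aa was at -1.06 and H2-Eb1 at -1.16, so that H2-Aa and H2-Ab1 turned direction. The share of all genes lower in that fit is not given here, so the 8 cannot be set against it.

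H2-Oa passed in 3 of 10 fits that left out an array. It missed without the spleen array of CTL2 (-0.84, adjusted p = 0.17), CTL4 (-1.08, adjusted p = 0.091), ONCO1 (-0.95, adjusted p = 0.05), ONCO3 (-0.96, adjusted p = 0.062) or ONCO4 (-0.95, adjusted p = 0.059), and without the lymph node array of CTL1 (-0.76, adjusted p = 0.26) or CTL2 (-1.12, adjusted p = 0.076). H2-Ob missed without the spleen array of CTL4 (-0.76, adjusted p = 0.074) or the lymph node array of CTL1 (-0.74, adjusted p = 0.11). In the animal CTL2, which gave both tissues, the lymph node was lower by 0.88 for H2-Oa, 0.55 for H2-Ob and 0.94 for Ciita, and higher by 0.23 for H2-Ab1 and 0.15 for H2-Aa.

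Between the tissues of the oncogenic Vav1 animals, 0 of 8 members changed and none had an unadjusted p under 0.05 (0.0373% of all genes changed by limma, 0% as lower). The arrays overlapped for all 8, where 7.33% of all genes were separated as higher and 8.03% as lower. All 8 differences were below 0, from -0.61 (SE 0.29) for H2-DMa to -0.26 (SE 0.16) for H2-Ob. Without oncogenic Vav1 lymph node replicate 1 all 8 passed as lower in the lymph node, from -1.27 for H2-DMa (adjusted p = 2.9e-05) to -0.48 for H2-Ob (adjusted p = 0.024), in a fit where 16.9% of all genes were lower. Without replicate 2 none of the 8 passed.

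Ordered by group mean, H2-Ab1, H2-Eb1, H2-DMa and H2-DMb1 were highest in the oncogenic Vav1 spleen (12.22 ± 0.12, 11.70 ± 0.09, 9.86 ± 0.09 and 11.23 ± 0.12; SD, n = 4). H2-Oa, H2-Ob and Ciita were highest in the GFP spleen (9.69 ± 0.15, 11.60 ± 0.23 and 9.73 ± 0.14; SD, n = 2), where the arrays did not overlap those of the next group, the oncogenic Vav1 spleen. In the deposited values, H2-Eb1 and H2-DMb1 in the GFP spleen were next below the oncogenic Vav1 spleen and apart from it. H2-Aa was highest in the GFP lymph node (12.61 ± 0.03, SD, n = 2), where it overlapped the oncogenic Vav1 spleen. The oncogenic Vav1 lymph node overlapped its neighbours in this order for all 8 genes.

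Other genes of the pathway came from a list of 43, of which 38 were tested. In the spleen 14 rose and 3 fell by limma, with a median of 0.23, where 17.1% of all genes rose and 9.77% fell. In the lymph node 4 rose and 4 fell, with a median of 0.07, where 7.87% of all genes rose and 10.8% fell. These counts moved when single arrays were left out, as did those over all genes. The spleen counts were 4 and 1 without the spleen array of CTL2, 5 and 1 without that of CTL4, 9 and 3 without that of ONCO1, and 18 and 5 without either oncogenic Vav1 lymph node array. The lymph node counts were 4 and 17 without the array of ONCO2, 16 and 4 without that of ONCO3, 0 and 2 without that of CTL1, and 1 and 1 without that of CTL2.

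The second beta chain gene H2-Eb2 was at 7.52 and 7.45 in the GFP spleen and at 8.68, 8.51, 8.16 and 8.56 in the oncogenic Vav1 spleen, and at 6.82 and 7.29 against 8.80 and 7.84 in the lymph node. In both tissues all oncogenic Vav1 arrays were above the GFP arrays. H2-Eb2 rose by 0.99 (SE 0.25, limma adjusted p = 0.016) in the spleen and by 1.26 (SE 0.29, adjusted p = 0.013) in the lymph node. Without the lymph node array of ONCO2 or ONCO3 it passed at 0.79 and 1.74, and it missed without that of CTL1 (1.03, adjusted p = 0.12). In the spleen H2-Eb2 missed without the array of CTL2 (1.03, adjusted p = 0.097) or CTL4 (0.96, adjusted p = 0.095). H2-DMb2, the second beta chain gene of H2-DM, differed by -0.17 (SE 0.17) and 0.08 (SE 0.19).

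Of 7 antigen processing genes, 5 rose in the spleen. They were the thiol reductase Ifi30 (1.27, SE 0.28, limma adjusted p = 0.0089), the proteases Ctsb (1.20, SE 0.15) and Lgmn (0.94, SE 0.21), the cathepsin Ctss that trims the invariant chain in antigen-presenting cells (0.82, SE 0.25, adjusted p = 0.033), and Ctsl (0.62, SE 0.16). Ctsl fell in the lymph node by 0.96 (SE 0.19, limma adjusted p = 0.0056) and the other 6 did not pass. On leaving out each array, Ctsb passed in 10 of 10 fits in the spleen. Lgmn and Ifi30 missed without the spleen array of CTL2 or CTL4, Ctsl without that of CTL2, CTL4 or ONCO1, and Ctss passed in 3 fits (highest adjusted p = 0.23). Ctsl missed in the lymph node without the array of CTL2 (-0.91, adjusted p = 0.059), while Ifi30 passed at -0.62 without that of ONCO2 and at 0.71 without that of ONCO3, and Lgmn at -0.37 and 0.58.

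The promoter factor list (Rfx5, Rfxank, Rfxap, Nfya, Nfyb, Nfyc and Creb1) had 0 of 7 changed in either tissue by limma, with Rfx5 at -0.23 (SE 0.21) in the spleen. None of the 7 had an unadjusted p under 0.05 in the spleen, while in the lymph node Creb1 (-0.35, SE 0.12) had an unadjusted p of 0.016 and Rfxank (-0.39, SE 0.17) one of 0.05. Without the lymph node array of ONCO2, 1 rose and 3 fell, namely Rfx5 (-0.72), Rfxank (-0.64) and Creb1 (-0.46).

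Of 12 genes upstream of Ciita, 3 rose and 1 fell in the spleen. Ifng, the cytokine that induces Ciita, rose by 3.30 (SE 0.48, limma adjusted p = 0.0014) in the spleen and by 2.11 (SE 0.56, adjusted p = 0.024) in the lymph node. Its values were 5.33 and 5.43 against 8.44 to 8.82 in the spleen. Both GFP values lay below the 40th percentile of their arrays (5.84 and 5.80), the level of the filter on low values. The spleen rise is thus set against a signal near background, and its size is uncertain. The repressor of Ciita in plasma cells, Prdm1, rose by 1.41 (SE 0.27), the interferon feedback inhibitor Socs1 by 1.34 (SE 0.36), and Irf4 fell by 0.47 (SE 0.13). Irf1, through which interferon-gamma acts on Ciita, was at 0.85 (SE 0.34, limma adjusted p = 0.085) and passed without either oncogenic Vav1 lymph node array. Irf1 passed in the lymph node as lower without the array of ONCO2 (-0.84) and as higher without that of ONCO3 (0.85). Ifng passed in 10 of 10 left-out fits in the spleen. It passed in the lymph node at 0.94 without the array of ONCO2 and at 3.29 without that of ONCO3, and missed without that of CTL1 (2.43, adjusted p = 0.077) or CTL2 (1.80, adjusted p = 0.17). In the spleen Prdm1 missed without the array of CTL2 (0.97, adjusted p = 0.071), Socs1 without that of CTL2, CTL4 or ONCO1, and Irf4 without that of CTL2, CTL4, ONCO2 or ONCO4.

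The ubiquitin ligase Marchf1, which removes class II from the surface of B cells and dendritic cells, fell by 0.71 in the spleen (SE 0.17, limma adjusted p = 0.013). The related ligase Marchf8 rose by 1.57 (SE 0.49, adjusted p = 0.039) there and by 2.10 (SE 0.57, adjusted p = 0.027) in the lymph node, where its highest array was oncogenic Vav1 replicate 2 at 11.04. Among the costimulatory genes, Cd80 rose by 0.92 (SE 0.25) and Icosl fell by 0.87 (SE 0.11) in the spleen, and Icosl fell by 0.93 (SE 0.13) in the lymph node. Of the T cell proteins that bind class II, Cd4 rose by 1.04 (SE 0.24, limma adjusted p = 0.01) in the spleen and fell by 0.99 (SE 0.27, adjusted p = 0.03) in the lymph node, and Lag3 rose by 2.79 (SE 0.41) in the spleen.

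Of these, Icosl in both tissues and Lag3 in the spleen passed in 10 of 10 left-out fits. In the spleen Marchf1 and Cd4 missed without the array of CTL2 or CTL4, Cd80 without that of CTL2, CTL4 or ONCO1, and Marchf8 passed in 2 fits, those without the lymph node array of ONCO2 or ONCO3 (range 1.15 to 1.99 over the 10). Marchf8 missed in the lymph node without the array of CTL1, CTL2 or ONCO3 (1.13, adjusted p = 0.067), and passed at 3.08 without that of ONCO2. Cd4 passed there in 5 fits and missed without the lymph node array of CTL1 or CTL2 or the spleen array of CTL2, CTL4 or ONCO4 (highest adjusted p = 0.16).

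**Figure D4:**
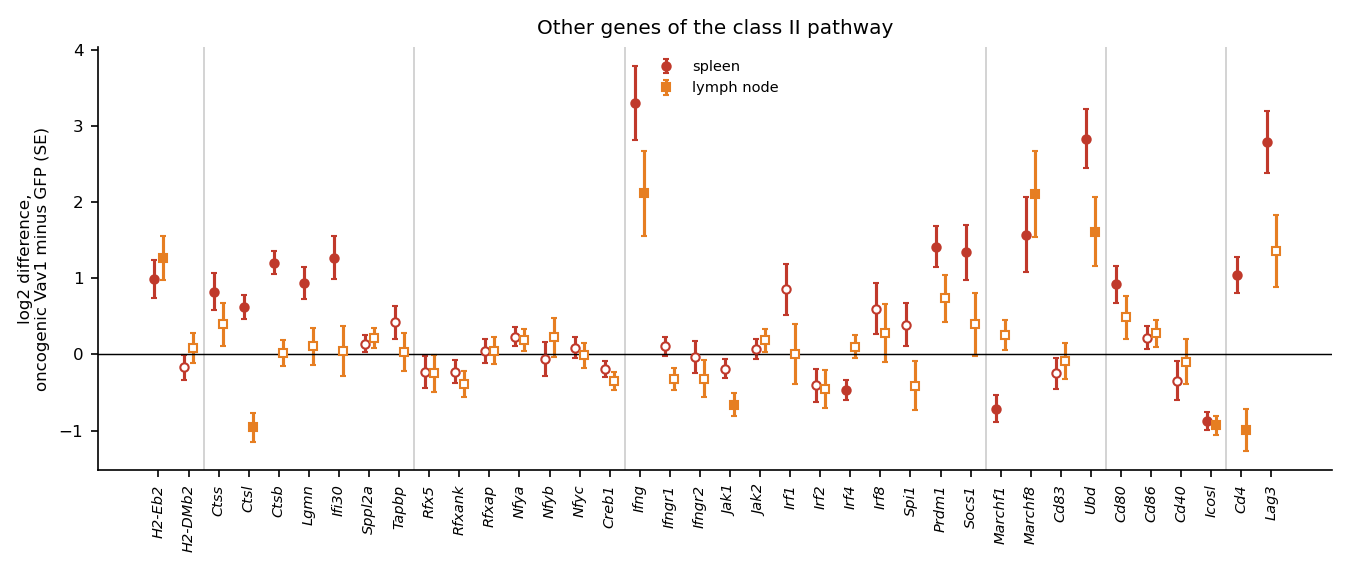
Log2 difference of oncogenic Vav1 minus GFP (y axis, bars are SE) for the other tested genes of the class II pathway (x axis, grey lines part other class II genes, processing, promoter factors, control of Ciita, turnover, costimulation and T cell proteins), in the spleen (circles) and lymph node (squares). Filled symbols have an adjusted p under 0.05. The 7 promoter factors have open symbols in both tissues, and Ifng rises in both.

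Markers of the cell types that carry class II moved in different directions in the same spleen arrays. Of 12 B cell markers, 8 fell and 0 rose, with a median of -0.98, and their mean lay between 10.92 and 10.96 in the GFP spleen and between 9.81 and 10.09 in the oncogenic Vav1 spleen. Among them Cd79a fell by 0.99 (SE 0.21) and Ms4a1 by 1.04 (SE 0.14). Without the spleen array of CTL2, 5 of the 12 fell, Cd79a (-0.85, adjusted p = 0.091) not among them. Of 12 macrophage and monocyte markers, 10 rose, with a median of 1.28 and means of 8.66 to 8.70 against 9.97 to 10.09. C1qa rose by 2.50 (SE 0.37), while Adgre1 (F4/80) was at 0.04 (SE 0.29). Of 11 dendritic cell markers, 3 rose and 3 fell. Itgax (CD11c) rose by 1.45 (SE 0.33), though not without the array of CTL2 or CTL4 (adjusted p = 0.087 and 0.06), and Flt3 was at -0.26 (SE 0.21).

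Markers of other cell types also moved on the same arrays. All 8 neutrophil markers rose, with a median of 3.50 in the spleen (means of 6.28 to 6.44 against 9.54 to 9.90) and of 3.11 in the lymph node (6.20 to 6.45 against 8.89 to 9.66). Of 6 plasma cell markers, 3 rose and 1 fell in the spleen and 4 rose in the lymph node. Of 9 stroma, vessel and fat markers, 9 fell in the lymph node, with a median of -2.38 (means of 10.1 to 10.2 against 7.96 to 8.11), and 1 rose and 3 fell in the spleen. The part of these cell types in the class II differences was not tested.

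In the lymph node, 0 B cell markers rose and 2 of 12 fell, 4 of 12 macrophage and monocyte markers rose, and 1 of 11 dendritic cell markers rose and 6 fell, Flt3 among them (-0.81, SE 0.24), which passed in 3 of 10 left-out fits. Without the array of ONCO2, 0 B cell markers rose and 7 fell, 4 macrophage and monocyte markers rose and 2 fell, and 11 of 11 T cell markers fell. Without that of ONCO3, 3 B cell markers rose and 2 fell, 9 macrophage and monocyte markers rose, and 5 T cell markers fell. The neutrophil markers rose in 8 of 8 in both of these fits, and the stroma, vessel and fat markers fell in 9 and 8 of 9.

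Between the tissues of the GFP animals, 9 of 12 B cell markers were lower in the lymph node, in the comparison in which H2-Oa and H2-Ob were lower. In the same comparison 8 of 9 stroma, vessel and fat markers were higher (median 3.15), as were 6 of 11 T cell markers (median 1.01), and 4 of 12 macrophage and monocyte markers were higher and 1 lower. On leaving out single arrays, 5 to 12 B cell markers were lower and 0 to 10 T cell markers higher. With oncogenic Vav1, 2 of 11 T cell markers rose in the spleen (0 without the array of CTL2 or CTL4) and 5 fell in the lymph node. The thymic epithelial genes Foxn1 and Psmb11 were below the filter on low values.

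**Figure D5:**
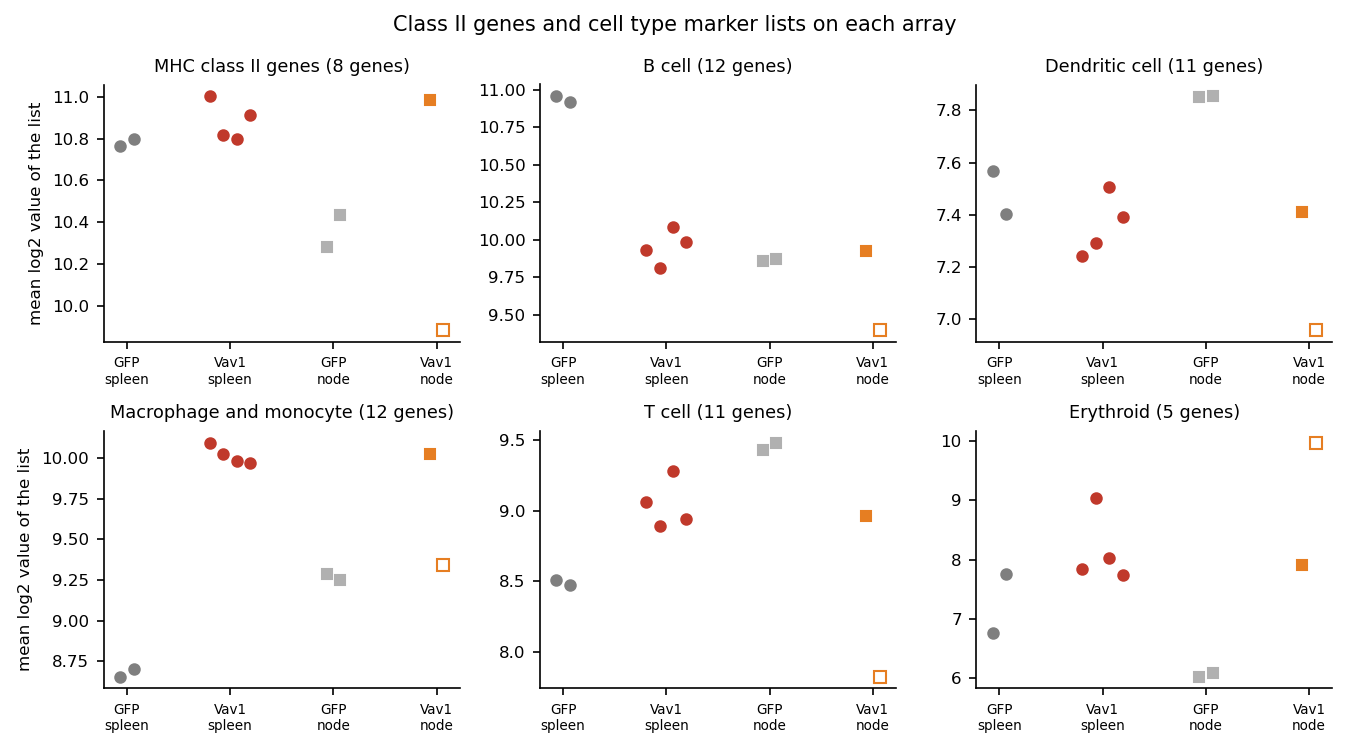
Mean log2 value (y axis, axes not starting at 0) of the 8 MHC class II genes and of marker lists for B cells, dendritic cells, macrophages and monocytes, T cells and erythroid cells on each array in the 4 groups (x axis). The open square is oncogenic Vav1 lymph node replicate 2. In the spleen the B cell mean is lower and the macrophage and monocyte mean higher with oncogenic Vav1, while the class II means of both groups meet at 10.80.

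Across the 10 arrays, the members followed different patterns. Against the mean centred profile of the 3 classical chains, which ranged over 1.27, the root mean square difference was 0.08 for H2-Eb1, 0.17 for H2-DMb1, 0.19 for H2-Aa and 0.21 for H2-Ab1. It was 0.33 for Ciita, 0.38 for H2-DMa, 0.38 for H2-Oa and 0.48 for H2-Ob. The 3 classical chains are part of that profile. H2-Oa was nearer to Ciita, at 0.20. Of 10268 genes with enough spread, Kdm2b (0.08), the myeloid lysozyme gene Lyz2 (0.08), the pore-forming protein gene Gsdmd (0.08) and Tapbp (0.08), which loads class I molecules and lies in the same chromosomal region, were nearest to the classical chains, followed by Kcng3, Mapkapk2, Nfkbiz and Trafd1.

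Nearest to Ciita, whose values ranged over 1.66, were the B cell receptor inhibitor Cd22 (0.10), Nrros (0.11), the kinase gene Prkcb (0.12), the transcription factor gene Tcf4 (0.12) and the Fc receptor-like gene Fcrl1 (0.13). Likeness over 10 arrays is weighted by the few arrays that vary most, and here oncogenic Vav1 lymph node replicate 2 was the lowest for the classical chains and for Ciita.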

How the data were processed

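Total RNA from 10 samples was hybridised to single-colour Affymetrix arrays. The deposited values are log2 values. Per the submitters' processing notes, the authors used RMA and R 3.6.3, and annotation version and filters are not given in the sources used here. RMA normalizes quantiles between arrays, which is meant to remove shifts common to all transcripts. The deposited arrays still differed in their medians (6.27 to 6.41), and centring on the median moved the counts of genes called. Raw scans were not analysed here, and the number of arrays limits the precision.

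Of 29129 probe sets, 19572 had 1 gene symbol in the platform's annotation. A gene was tested if above the 40th percentile of its array on at least 2 arrays. The linear models used limma (3.58.1, with statmod 1.5.0 and R 4.3.3; eBayes with a variance trend, two-sided, Benjamini-Hochberg over 13393 genes, threshold 0.05). Constructs were compared within each tissue in a model of the 4 groups with 6 residual degrees of freedom. Tissues and the interaction had the animal as a random block (correlation -0.11), as did the additive model over both tissues (correlation -0.35). The fits were tested on simulated data.

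Members and lists were chosen with earlier results of these data known. All members are named, up to 6 genes a list and comparison by smallest p, and fixed marker genes. The genes of like pattern are the 8 and 5 with the smallest root mean square difference of centred values. Array replicates with the same number in the GFP and oncogenic Vav1 groups are different animals, so the numbers were not read as pairs. Alternatives changed the filter on low values, the scaling, the variance trend, the blocks or the arrays used, or added array weights or the intronic control covariate. Promoters come from RefSeq (GRCm38.p6), and 6 of 9 members had one that was used.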

Additional observations from a re-analysis of the deposited data

How the results depend on the processing

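Over 1024 alternative values for single members, 912 stayed on the same side of the threshold (64 values changed sign without passing the test in either fit), 39 lost it, 63 gained it and 10 reversed. On leaving out each array in turn, the number of members changed ran from 0 to 5 in the spleen, the lymph node, both tissues and the interaction, from 0 to 4 between GFP tissues and from 0 to 8 between oncogenic Vav1 tissues. With 2 arrays in most groups, single arrays decide calls. Other pathway genes and markers were refitted only on leaving out each array, an alternative chosen after seeing the data.

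Without the animal ONCO3, 5 members changed in the spleen, 5 in the lymph node, 6 over both tissues, 4 between GFP tissues and 4 in the interaction, with H2-Eb1 at 0.53 in the lymph node and H2-Aa at 0.13 over both tissues. With the spleen arrays alone, 5 changed. Array weights gave 4 between GFP tissues. In these fits the counts over all genes, given below for all but the lymph node, were also larger than in the main fits.

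With the intronic control covariate, 1 changed in the lymph node, 8 between GFP tissues, 5 over both tissues and 2 in the interaction. Counts over all genes with the covariate are given here only for the spleen. These member counts therefore cannot be set against a share of all genes or read as particular to class II. H2-Aa and H2-Ab1 then reversed to -0.95 and -0.14 in the spleen and to -1.06 and -1.05 between GFP tissues, and H2-Eb1 to -0.42 over both tissues. Without oncogenic Vav1 lymph node replicate 1, Ciita reversed to -0.68 in the lymph node and H2-DMb1 to -0.45 in the interaction, and without replicate 2 H2-Eb1 reversed to 0.53 in the lymph node; over single left-out arrays the lymph node values ran from -0.83 to 0.53 for H2-Eb1 and from -0.68 to 0.73 for Ciita. The cause was not tested.

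With the replicate number of the titles as a block, 1 member changed in the spleen (H2-Ob, adjusted p = 0.041) and 1 between GFP tissues, by limma. By the animal codes, the numbers are not a pairing of animals. Same-numbered arrays of the 2 constructs correlated at 0.04 and 0.30 in the spleen and at -0.06 in the lymph node. The lymph node value was the same for replicates 1 and 2, so it is 1 check and not 2.

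Counts over all genes also moved. In the spleen 3596 genes changed, against 916 with the covariate, 5040 with the spleen arrays alone, 5852 without ONCO3 and 1079 to 5521 on leaving out single arrays. In the lymph node 2500 changed, against 1264 with array weights, 469 with the lymph node arrays alone and 943 to 4651 on leaving out single arrays. Over both tissues 4247 changed, against 7335 with the replicate block, 6750 without ONCO3, 2963 without the animal block and 2107 to 6106 on leaving out single arrays. Between GFP tissues 2144 changed, against 3879 with array weights, 4704 without ONCO3 and 775 to 4281 on leaving out single arrays. For the interaction it was 1077, against 2734 without ONCO3 and 326 to 4205 on leaving out single arrays. Quantile normalization, an alternative added after seeing the data for the chain contrasts, moved H2-Ab1 minus H2-Aa from 0.79 to 0.69 (oncogenic Vav1 mean minus GFP mean).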
